A study of Drosophila melanogaster with 3 samples.

Results

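Ama, Nrt, Nrg, shg, arm, Fas3, atilla and cora are 8 fly genes whose products sit at, or are secreted onto, the cell surface and take part in contact between cells. They were chosen by name, and spots on the array were assigned to them through the platform's gene symbols and FlyBase synonyms. A spot was found for 6 of the 8, in each case a single cDNA clone with a value on every array, namely LD39923 for Ama, LD22004 for Nrt, GH03573 for Nrg, LD22706 for shg, RE50156 for atilla and RE08339 for cora. No spot was named for arm or for Fas3, and both are absent from all results. The 6 measured genes were fitted together with all 10183 tested features, of which 8177 were named genes.

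Cells adhere through several families of surface proteins. Cadherins such as the product of shg (shotgun, the fly E-cadherin) hold neighbouring cells together at adherens junctions, where the product of arm (armadillo, the fly beta-catenin) ties them to actin through alpha-catenin. Immunoglobulin-type proteins, among them Neuroglian (Nrg, the fly L1-type protein) and Fasciclin 3 (Fas3), work along the lateral membrane, where the FERM domain protein Coracle (cora) and Neuroglian also belong to septate junctions, the seals of insect epithelia. Amalgam (Ama) is a secreted immunoglobulin-type protein that binds Neurotactin (Nrt), a transmembrane protein with a cholinesterase-like outer part. The product of atilla is a small surface protein of the Ly6 family, whose members are usually held by a lipid anchor, and is used as a marker of lamellocytes, flattened blood cells of the larva. The syncytial embryo is a single cell with many nuclei, which become enclosed in separate cells when the blastoderm cellularizes.

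RNA was compared between laser-wounded and unwounded embryos that had been collected over 0 to 1 h, dechorionated by hand and kept under halocarbon oil. All embryos, controls included, carried the actin reporter sGMCA, which is driven by the promoter of spaghetti squash. Wounded embryos were frozen 30 min after wounding and compared with unwounded ones treated alike. Each of 3 two-colour arrays of spotted cDNA clones held wounded RNA in Cy3 and unwounded RNA in Cy5 from a separate experiment, numbered 3, 4 and 5 in the labels, so that dye and condition cannot be told apart. RNA came from pools of whole embryos of unstated number, and a higher ratio in such a pool does not tell more RNA per embryo from more embryos that contain the RNA. The arrays report log2 ratios alone, so neither the level of a transcript nor its absence can be read from them, and the labelled stage could not be checked by the presence of marker genes.

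Positive ratios are read as higher in wounded embryos. The table does not state this, and a plain Cy5 over Cy3 ratio would run the other way. The reading is likely because, leaving Ama aside, 11 of 11 tested genes that the study's text names as raised had a mean above 0 and 13 of 13 that it names as lowered had a mean below 0. The means of ImpL2 and dhd here, 1.363 and -1.348, also equal the changes that the study prints for them. Both grounds come from the study's own report. With the other reading, every direction below turns around.

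Transcripts of 5 of the 6 measured genes stood above 0 on all 3 arrays, the exception being shg. Among all features 25.3% were above 0 on all 3 arrays and 25.0% were below 0 on all of them. Only atilla was called higher, that is, with a limma adjusted p under 0.05 over all features and a change of at least 1.5-fold, against 0.648% of all features called higher and 1.68% called lower. None of the 6 was called lower. The mean of 3 members, Ama, atilla and Nrt, was at least 1.5-fold higher, as was that of 1.81% of all features, and 4 members had an unadjusted p under 0.05 with a positive mean, as had 10.1% of all features. The median of the 6 means was 0.60 on the log2 scale, against 0.0014 for all features. The members were listed with these ratios already known, so the excess over all features is a description of the list.

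**Figure D1:**
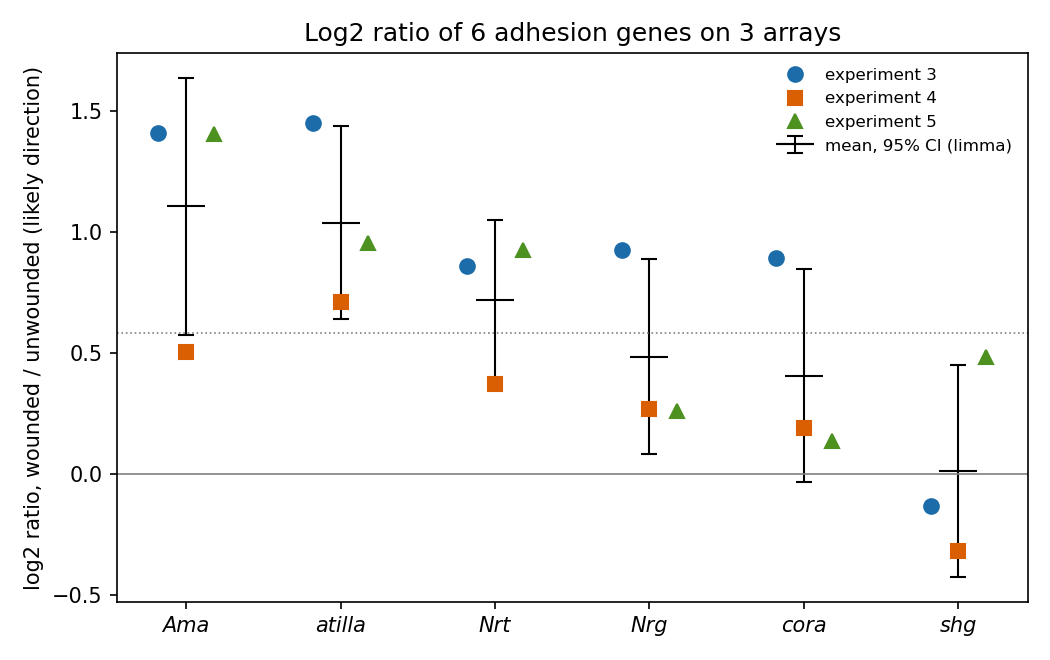
Log2 ratio of wounded over unwounded RNA (vertical axis) for the 6 measured genes (horizontal axis), with 1 symbol per array and a black bar for the mean with its 95% confidence interval from limma. The dotted line marks 1.5-fold. Ama, atilla and Nrt lie above it in the mean, Nrg and cora reach it in experiment 3 only, and shg straddles 0.

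Ama, the secreted ligand, had the highest mean of the 6. Its log2 ratio was 1.41 in experiment 3, 0.50 in experiment 4 and 1.41 in experiment 5. The ratio in experiments 3 and 5 was thus nearly the same, and that in experiment 4 was much smaller but still above 0. The mean was 1.11 ± 0.52 (SD, n = 3), or 2.15-fold, with a 95% confidence interval from 1.49-fold to 3.11-fold. It ranked 12 from the top among 10183 features, yet it was not called (limma adjusted p = 0.0612). The study, with the same limits, lists Ama among its raised genes and prints the same mean, 1.108. It speaks of fewer genes assayed than the 10183 features over which p was adjusted here. What the different call rests on was not tested. Weighting the arrays by their estimated quality brought Ama past the threshold (mean 1.19, limma adjusted p = 0.0402), with weights of 1.53, 0.768 and 0.851 for experiments 3, 4 and 5. Of 12 alternatives run, 2 called Ama, namely this one and an adjusted p under 0.10. Without experiment 5 its limma adjusted p was 0.249.

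Nrt, the receptor of Amalgam on the cell surface, had log2 ratios of 0.86, 0.37 and 0.93 in experiments 3, 4 and 5. As for Ama, experiments 3 and 5 were close to each other and experiment 4 was the lowest. The mean was 0.72 ± 0.30 (SD, n = 3), or 1.65-fold, with a 95% confidence interval from 1.31-fold to 2.07-fold, and it was not called (limma adjusted p = 0.0578). Array weights also brought Nrt past the threshold (mean 0.76, limma adjusted p = 0.0391). An adjusted p under 0.10 was the only other of 12 alternatives to call Nrt. The log2 ratio of Ama exceeded that of Nrt by 0.55, 0.13 and 0.48 on the 3 arrays, a mean difference of 0.39 ± 0.22 (SD, n = 3).

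The Abl tyrosine kinase pathway acts with Neurotactin and Amalgam in fly axons, and 5 of its 7 listed genes, including Ama and Nrt, had a spot. None was called. The guanine nucleotide exchange factor gene trio had 0.36, 0.25 and 0.27 (mean 0.29 ± 0.06, limma adjusted p = 0.0840), the kinase gene Abl had a mean of 0.21 ± 0.12 (adjusted p = 0.184) and the actin regulator gene ena, which Abl opposes, had -0.21 ± 0.14 (adjusted p = 0.198). Among 7 cholinesterase-like adhesion genes none was called, and Nrt had the highest mean. The septate junction protein gene Gli (gliotactin) had 0.20 ± 0.14, whereas the neuroligin genes Nlg2 and Nlg3 had -0.38 ± 0.22 and -0.29 ± 0.10 (limma adjusted p from 0.0978 to 0.204 for these 3 genes). The median of this list was -0.07.

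The log2 ratio of atilla was 1.45 in experiment 3, 0.71 in experiment 4 and 0.96 in experiment 5. Each array alone showed more than 1.5-fold, and atilla was the 1 member of which this held. The mean was 1.04 ± 0.38 (SD, n = 3), or 2.06-fold, with a 95% confidence interval from 1.56-fold to 2.71-fold, and it was called higher (limma adjusted p = 0.0419). Among all called features the limma adjusted p ranged from 0.0365 to 0.0493, so that no call was far from the threshold. The call of atilla was lost when all arrays were given an equal spread (mean 1.03, adjusted p = 0.0633) and when any 1 array was left out (adjusted p = 0.147, 0.0771 and 0.192 without experiment 3, 4 and 5).

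Of 17 genes listed for the Ly6 family 13 were tested, and atilla was the called one (7.69%), against 0.648% of all features called higher. This share rests on atilla, a member listed with its ratio already known. The other 12 tested genes were not called. The median of the 13 was 0.0035. The nearest to atilla in mean was bou (boudin, needed for septate junctions), with 0.98, 0.21 and 0.45 and a mean of 0.55 ± 0.39 (limma adjusted p = 0.132). Other members lay on both sides of 0. The septate junction genes crok (crooked) and cold (coiled) had -0.07 ± 0.10 and -0.14 ± 0.21, and the lowest mean was that of crim (crimpled), at -0.40 ± 0.16 (adjusted p = 0.0767).

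Because atilla marks lamellocytes, other genes of blood cells were set beside it. Of 19 such genes 14 had a value on all arrays, limma called 0 of them, and their median was 0.05. The prophenoloxidase genes PPO3, which lamellocytes also express, and PPO2 had 0.03 ± 0.07 and 0.06 ± 0.21. The highest means of the list were those of a further prophenoloxidase gene, PPO1, at 1.32, -0.26 and 0.22 (0.43 ± 0.81), and of the kinase gene msn (misshapen), at 0.90, -0.08 and 0.30 (0.37 ± 0.49), both of which were high in experiment 3 alone. The clotting protein gene Hml (hemolectin) had 0.25 ± 0.23 and the scavenger receptor gene crq (croquemort) -0.32 ± 0.15 (limma adjusted p = 0.220 and 0.110). The 3 probes of NimC1, a phagocytosis receptor gene, disagreed, and their average was -0.92 ± 0.65 (adjusted p = 0.119). An unadjusted p under 0.05 was reached by 3 of the 14, namely crq, NimC1 and the transcriptional cofactor gene ush (0.26 ± 0.18), and by 25.0% of all features in either direction.

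Both lateral membrane genes were high in experiment 3 and closer to 0 in experiments 4 and 5. Nrg had log2 ratios of 0.93, 0.27 and 0.26 in experiments 3, 4 and 5, with a mean of 0.49 ± 0.38 (SD, n = 3), or 1.40-fold (95% confidence interval from 1.06-fold to 1.85-fold; limma adjusted p = 0.150). For cora they were 0.89, 0.19 and 0.14, with a mean of 0.41 ± 0.42, or 1.33-fold (95% confidence interval from 0.978-fold to 1.80-fold; adjusted p = 0.223). Nrg exceeded cora by 0.03, 0.08 and 0.13 on the 3 arrays, so the order of these genes and their distance from each other hardly differed between arrays. Without experiment 3 the means of Nrg and cora were 0.26 and 0.16, and neither gene was called under any alternative that was run.

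Of 27 listed genes of septate junctions and lateral polarity 22 were tested and none was called, with a median of 0.15 over the 3 arrays. The immunoglobulin-type gene Lac (lachesin) had 0.54, 0.29 and 0.52, with a mean of 0.45 ± 0.14 (limma adjusted p = 0.0578). The highest mean was that of nrv2, which encodes a subunit of the sodium pump, but it rested on experiment 3, with 2.40, 0.12 and 0.27 (mean 0.93 ± 1.27, adjusted p = 0.298). The 4-pass membrane protein gene M6 had 0.72, 0.17 and 0.15, the same shape as Nrg and cora. The scaffold genes dlg1 and scrib and the polarity gene l(2)gl, whose products are supplied maternally, had means of 0.07, 0.08 and 0.09.

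The pattern of Nrg and cora, at least 1.5-fold in experiment 3 and below it on both other arrays, was counted across genes after the values had been seen. In all features 3.75%, 1.40% and 2.20% were at least 1.5-fold higher in experiments 3, 4 and 5, and 2.43%, 0.727% and 0.923% were so on that array alone. Of 42 other genes in the lists of septate junctions and lateral polarity and of integrins and basement membrane, 8 (19.0%) were at least 1.5-fold higher in experiment 3 alone and 0 in experiment 4 or 5 alone. Of the 109 tested adhesion genes that are not members, these counts were 13, 1 and 0. A list of early zygotic genes gave 7 of 38 (18.4%) in experiment 3 alone, so the pattern was also found outside the adhesion genes.

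**Figure D2:**
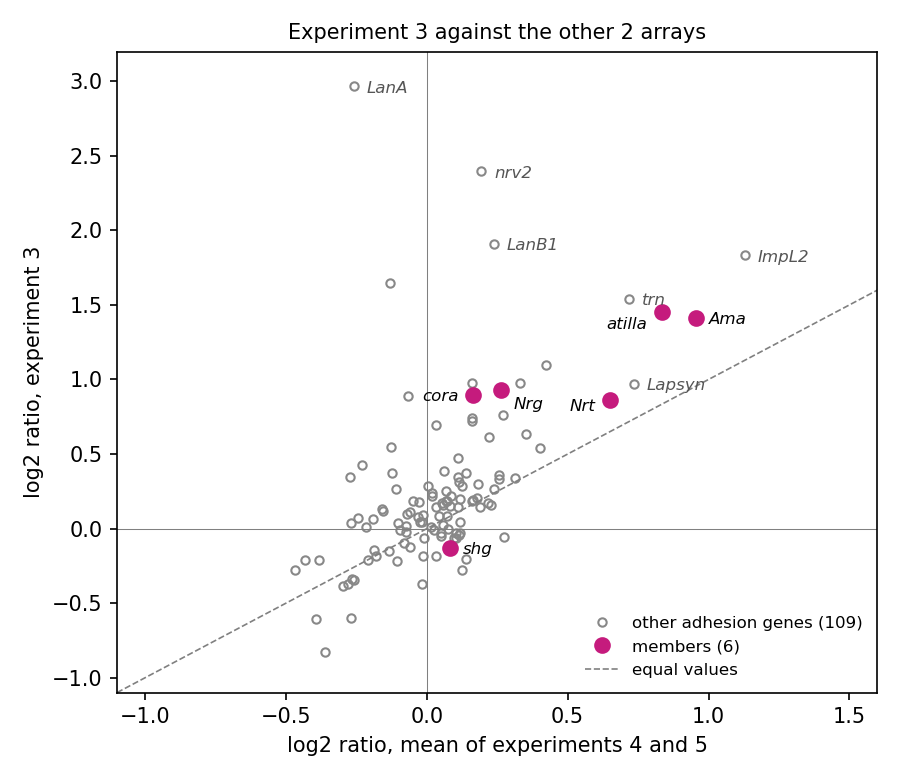
Log2 ratio in experiment 3 (vertical axis) against the mean log2 ratio of experiments 4 and 5 (horizontal axis) for the 6 measured members (filled) and 109 other adhesion genes (open circles). The dashed line marks equal values. Ama, atilla and Nrt are high on both axes, Nrg and cora are high in experiment 3 alone, like nrv2 and the laminin genes LanA and LanB1, and shg lies near the origin.

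The cadherin gene shg had log2 ratios of -0.13, -0.32 and 0.48 in experiments 3, 4 and 5. It was below 0 on 2 arrays and above 0 on 1, the highest being experiment 5, in which Nrg and cora had their lowest ratios. The mean was 0.013 ± 0.42 (SD, n = 3), or 1.01-fold, and it was not called (limma adjusted p = 0.971). The 95% confidence interval ran from 0.745-fold to 1.37-fold, which leaves room for a change of either sign short of 1.5-fold.

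Of 28 listed genes of adherens junctions and cadherins 15 had a value on all arrays, limma called 0 of them, and their median was 0.04. The catenin genes with a spot were near 0, with -0.01 ± 0.13 for alpha-Cat (alpha-catenin) and -0.04 ± 0.11 for p120ctn (p120 catenin). The scaffold gene cno (canoe) had -0.01 ± 0.24, and pyd (polychaetoid, the ZO-1 protein) had 0.25 ± 0.01 (limma adjusted p = 0.0999). The smallest p-values of the list belonged to jub, an Ajuba-type LIM protein gene, at -0.31 ± 0.07, and to the cadherin gene Cad89D, at -0.29 ± 0.07 (adjusted p = 0.0777 and 0.0888). The highest mean was that of Cad74A, a cadherin gene, at 0.35 ± 0.25 (adjusted p = 0.147). With arm untested, the cadherin and catenin core is covered here by shg, alpha-Cat and p120ctn, none of which was past the threshold. An unadjusted p under 0.05 was reached by 7 of the 15, of which 4 were above 0, and by 25.0% of all features in either direction.

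By mean log2 ratio the order was Ama, atilla, Nrt, Nrg, cora and shg. Some neighbours in this order changed places between arrays. Ama minus atilla was -0.04, -0.21 and 0.45 on the 3 arrays (mean 0.07 ± 0.34), and Nrt minus Nrg was -0.07, 0.11 and 0.67 (mean 0.23 ± 0.38), so neither pair kept its order on all arrays. The difference of cora and shg was 1.02, 0.51 and -0.35 and also changed sign. The difference of atilla and Nrt was above 0 on each array (0.59, 0.34 and 0.03) with a mean of 0.32 ± 0.28. These are differences between ratios of unlike clones and were not tested.

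Seen against the whole of each array, atilla kept its place best. It lay at percentile 99.4, 99.2 and 99.2 of all features in experiments 3, 4 and 5, although its log2 ratio fell from 1.45 to 0.71 between experiments 3 and 4. Ama lay at percentile 99.3, 97.9 and 99.8, and Nrt at 97.6, 96.2 and 99.1. Nrg moved from 97.9 and 93.3 to 84.2, and cora from 97.8 and 88.3 to 69.4. The cadherin gene shg lay at 29.1, 14.1 and 96.2. The lower ratios of Ama, Nrt and atilla in experiment 4 were shared by other features: of the features called higher, 80.3% had their smallest value in experiment 4, 19.7% in experiment 5 and 0% in experiment 3, and their median was 1.19, 0.63 and 0.92 in experiments 3, 4 and 5. Of all features above 0 on the 3 arrays, 58.6% were smallest in experiment 4.

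**Figure D3:**
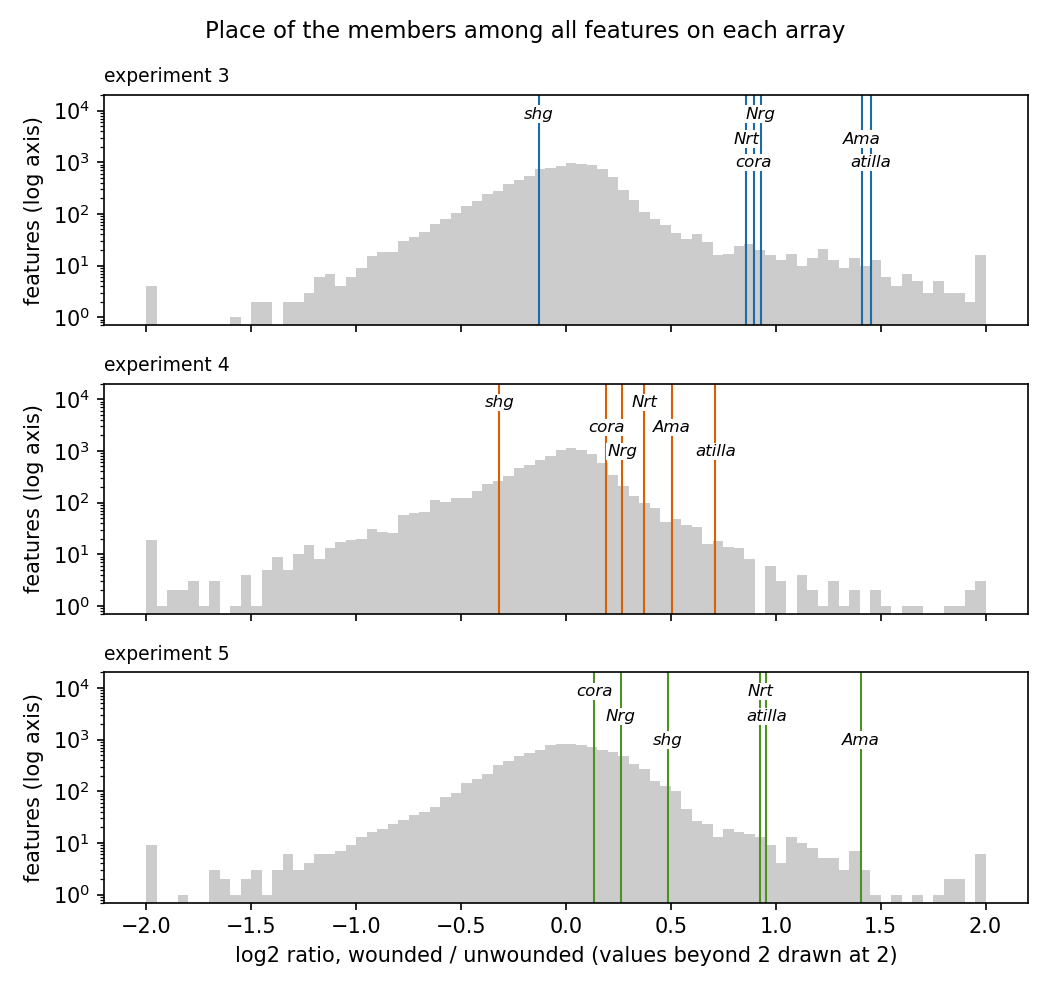
Histogram of the log2 ratios of all 10183 features (grey, vertical log axis of feature counts) on each of the 3 arrays, with a coloured line at the value of each measured member. Ama, Nrt and atilla lie in the upper tail on every array, cora and Nrg move toward the bulk in experiment 5, and shg changes side between arrays.

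The lists of other adhesion families gave 2 further calls. Across 163 listed adhesion genes, members included, 115 were tested. In limma 3 were called higher (2.61%) and 0 lower, against 0.648% and 1.68% of all features. Without the members 2 of 109 were called higher (1.83%). The lists were written with earlier results of these data known. The 3 called were atilla, ImpL2 and Lapsyn, which encodes a leucine-rich repeat membrane protein. ImpL2 encodes a secreted immunoglobulin-type protein that binds insulin-like peptides. It stood in the immunoglobulin list, while the study places it in insulin signalling. The log2 ratio of Lapsyn was 0.97, 0.56 and 0.91, with a mean of 0.81 ± 0.22 (adjusted p = 0.0369). The median of the 109 genes without the members was 0.06. The log2 ratio of ImpL2 was 1.83, 1.16 and 1.09, with a mean of 1.36 ± 0.41 (adjusted p = 0.0367). Of 25 tested immunoglobulin and fasciclin genes ImpL2 was the called one, with a list median of 0.10, and it alone had a higher mean than Ama.

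Between Ama and Nrg in that list stood Dscam1, an immunoglobulin-type receptor gene of neurons, with 1.10, 0.31 and 0.54 (mean 0.65 ± 0.41, limma adjusted p = 0.106). Among 12 tested leucine-rich repeat genes trn (tartan) had 1.54, 0.37 and 1.07, a mean of 0.99 ± 0.59, and was not called (adjusted p = 0.0899). In the list of integrins and basement membrane limma called 0 of 22 tested genes. The talin gene rhea, which links integrins to actin, had nearly equal ratios of 0.34, 0.30 and 0.32 (mean 0.32 ± 0.02, adjusted p = 0.0627), and mys, the main integrin beta chain, had 0.014 ± 0.0087. None of 7 tested apical polarity genes was called as an average of its probes, with crb (crumbs) at 0.18 ± 0.17 and Moe (moesin) at -0.14 ± 0.09 (adjusted p = 0.278 for both). The average of 4 probes of sdt (stardust, the partner of Crumbs) was 0.06 ± 0.22, and 1 of these probes taken alone was called higher, at 0.55, 0.47 and 0.82 (mean 0.61, adjusted p = 0.0485).

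**Figure D4:**
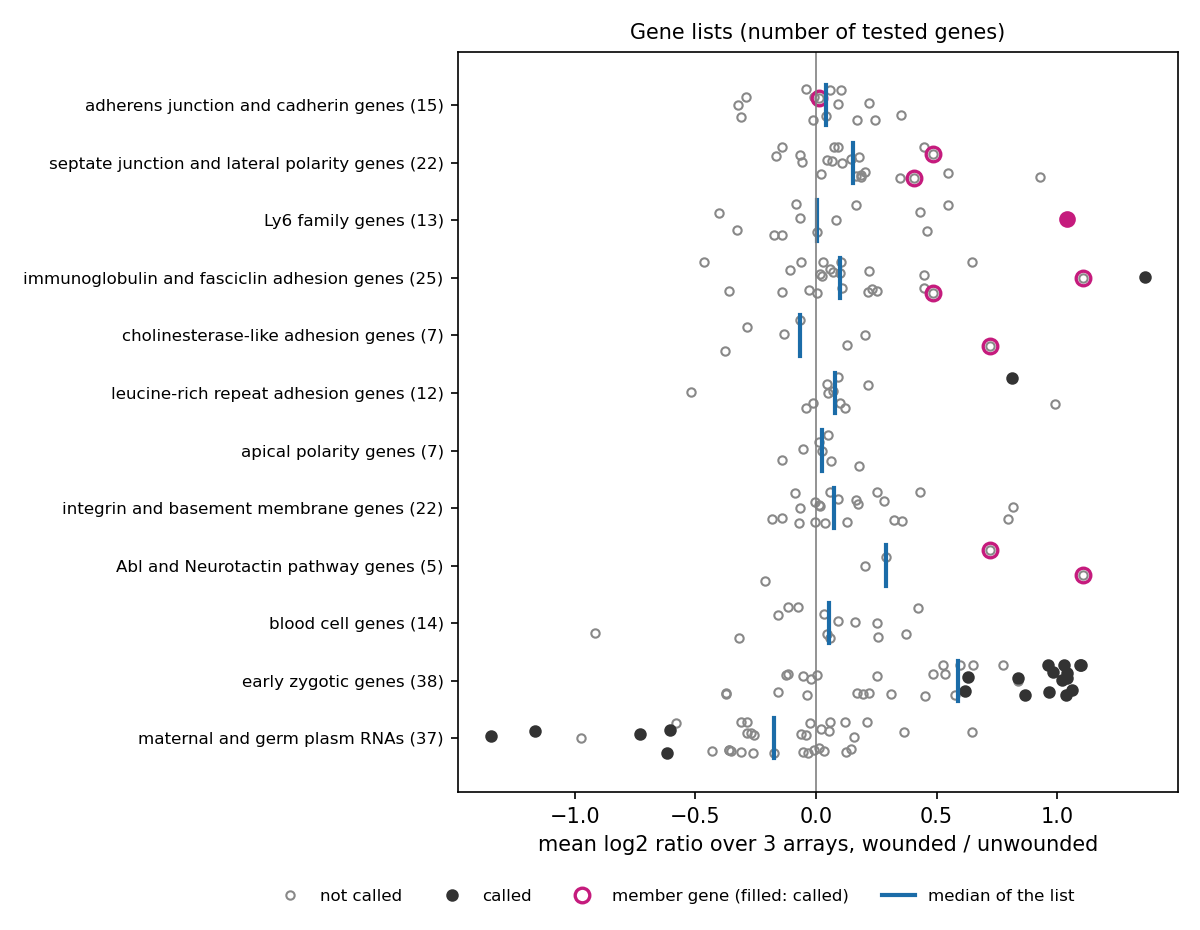
Mean log2 ratio over 3 arrays (horizontal axis) of every tested gene in 12 gene lists (rows, with the number of tested genes). Filled circles were called, open circles were not, members are outlined or filled in magenta, and a blue bar marks the median of each list. List medians of the adhesion genes run from -0.07 to 0.29, Ama, atilla and Nrt lie to the right in their lists with ImpL2 farther right than Ama, and the early zygotic list has a median of 0.59.

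Some genes of the embryo's own early transcription were called higher beside atilla. Of 60 listed early zygotic genes 38 were tested, and 15 (39.5%) were called higher and 0 lower in limma. Among all features 0.648% were called higher and 1.68% lower. This list and that of maternal RNAs were written with earlier results of these data known. The median of the 38 was 0.59, with 0.84, 0.36 and 0.52 in experiments 3, 4 and 5. Among the called ones were the transcription factor genes dpn (1.10 ± 0.32) and Doc1 (1.06 ± 0.32), nullo, which is needed for cellularization (1.09 ± 0.29), and Tom (1.04 ± 0.32). Of the 23 not called, pnr (pannier, a GATA factor gene) was below 0 on every array, at -0.33, -0.38 and -0.40 (mean -0.37 ± 0.04, adjusted p = 0.0510), and salm had the lowest mean, at -0.37 ± 0.59. Of 37 tested maternal and germ plasm RNAs 0 were called higher and 5 lower, with a median of -0.17, and those called lower included dhd (-1.35 ± 0.04), exu (-1.17 ± 0.12), nanos (-0.73 ± 0.13) and vas (-0.62 ± 0.09). The part of these stage genes in the ratios of Ama, Nrt and atilla was not tested.

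The named genes nearest to Ama over the 3 arrays, by Euclidean distance of log2 ratios, were danr (distance 0.058), Dtg (0.237), Sry-alpha (0.276), nullo (0.325) and the epidermal growth factor receptor gene Egfr (0.339). Sry-alpha and nullo are both needed for cellularization, and they and Egfr were called higher. The nearest, danr, had 1.44, 0.48 and 1.36 and, like Ama and Dtg, was not called (limma adjusted p = 0.0656 for danr and 0.0527 for Dtg). The study lists danr and Dtg, too, among its raised genes. Nearest to atilla were the innexin gene Inx3 (0.101; 1.43, 0.70 and 1.05), hll (0.106), CG4702 (0.141), Traf4 (0.150) and dpn (0.174). Of these 5, CG4702 was the 1 not called (adjusted p = 0.0606).

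Genes next to the members on the chromosome had ratios near 0. In the order of protein-coding genes of the RefSeq Release 6 assembly, which served for names and neighbours only, Ama lies beside bcd in the Antennapedia complex, and bcd, a maternal RNA, had 0.25, 0.02 and 0.20 (mean 0.16 ± 0.12, limma adjusted p = 0.277). The Ly6 gene crok, 2 places from atilla, had a mean of -0.07. Of the 2 neighbours on each side of the 6 measured genes 14 were tested, with means from -0.25 to 0.16 and a median of 0.02, and 0 were called in limma.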

How the data were processed

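The deposited table held 1 log2 ratio per probe and array for 12144 probes of a spotted fly cDNA array. According to the study's methods, the authors filtered out spots that lay near background, had weak signal in each channel or were set aside by the image software, and log2 transformed the ratios before loess normalization of each array in limma. Loess centres the bulk of the ratios, which hides a shift common to most transcripts. A cDNA clone can also hybridize to related transcripts. Intensities of single spots were not analysed here, and precision is limited by having 3 arrays. The series text describes the experiments as independent. The study's methods state more replicates at this time point than the 3 arrays analysed here. Even so, the changes it prints for Ama, ImpL2, dhd and exu equal the means of these 3 arrays to 3 decimals. Empty cells numbered 96, 269 and 148 in experiments 3, 4 and 5, and array medians were 0.0004, -0.0132 and 0.0088. The SD over features was 0.339, 0.333 and 0.324.

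Gene names came from the platform annotation and were updated by gene identifier to the RefSeq Release 6 table: 9917 had 1 symbol, 625 several and 1442 none, and 160 control spots were left out. Probes with a value on all 3 arrays were averaged per gene, and those of them with several symbols or none were kept singly. Probes with an empty cell were left out of the main fit. A two-sided moderated test of each mean against 0 was made by limma 3.58.1 under R 4.3.3, with the intercept as the single coefficient, and p-values were adjusted after Benjamini and Hochberg over all 10183 features. The threshold (adjusted p under 0.05, at least 1.5-fold) follows the study's methods. The code was tested on simulated data.

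The members and gene lists were chosen with earlier results of these data known. Named genes are the members, up to 4 called genes per list or else the 2 with the smallest p, and the 5 named genes nearest to Ama and to atilla. All other genes named were chosen after their values were seen. Alternatives were each probe alone, features on at least 2 arrays, median centring, scaling to the same spread, array weights, robust moderation, no minimum change, an adjusted p under 0.10, each array left out and the opposite sign.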

Additional observations from a re-analysis of the deposited data

How the results depend on the processing

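Apart from the opposite sign, Ama, Nrt, Nrg, cora and atilla kept a positive mean under every alternative run. Arrays scaled to the same spread gave 0 features called higher and 0 lower in limma (2546 with an unadjusted p under 0.05), 0 adhesion genes beside the members, and 1.03 for atilla, which lost its call; the cause was not tested. Leaving out 1 array gave 0 features called higher, 0 called lower and 0 other adhesion genes called in limma, whichever array it was (1473, 2446 and 1675 features with an unadjusted p under 0.05 without experiment 3, 4 and 5), where 2 arrays leave the test few degrees of freedom. The mean of atilla was then 0.83 to 1.20, uncalled each time, and that of shg -0.22 to 0.18. The mean of shg was also below 0 with scaled arrays (-0.0224) and with array weights (-0.0092). Array weights called Ama at 1.19 and Nrt at 0.76, and an adjusted p under 0.10 called Ama at 1.11 and Nrt at 0.72, with 115 features higher. All other alternatives left both Ama and Nrt uncalled. With each probe tested alone a probe of sdt was also called higher (0.61). Without a minimum change 322 features were lower, 1 of them an adhesion gene, hbs (-0.47). With values on at least 2 arrays 1 other adhesion gene was lower, baz (-2.30, empty in experiment 5). With the opposite sign 171 features were higher and 66 lower, 0 and 2 of them other adhesion genes, and the means were -1.11 for Ama, -1.04 for atilla, -0.72 for Nrt, -0.49 for Nrg, -0.41 for cora and -0.0126 for shg. Each array holds both conditions, so the test of its log2 ratio against 0 was already paired by array. With 1 group no further pairing was possible. The number of arrays limits what can be called, and spot intensities were not analysed.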

Other observations

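Laminin genes, which encode the trimeric base of basement membranes, were at least 1.5-fold higher in experiment 3 alone. The log2 ratio of LanA was 2.97, -0.54 and 0.02 in experiments 3, 4 and 5, that of LanB1 was 1.91, 0.11 and 0.37, and that of LanB2 was 0.69, 0.07 and -0.01. The laminin alpha gene wb (wing blister) had 0.74, 0.09 and 0.24, and the integrin alpha gene scb (scab) 0.98, -0.05 and 0.37. None of these 5 genes was called (limma adjusted p from 0.211 to 0.501). The collagen IV gene vkg (viking) had 0.15, 0.06 and 0.32, and Col4a1 had 0.35, -0.27 and -0.27. These genes were picked after the values were seen.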
